A study of Homo sapiens with 10 samples.

Results

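The antigen receptor V gene segments are the members of the GENCODE v44 annotation of hg38 that are typed as immunoglobulin or T cell receptor V genes on chromosomes 2, 7, 14 and 22. The rule found 238 of them among the 62663 annotated genes of chromosomes 1 to 22, X and Y by gene type and chromosome alone. 14 V genes on other chromosomes were left out by the rule.

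The data were lists of chromatin immunoprecipitation (ChIP-seq) peaks from HEK-293T, a human embryonic kidney cell line, with 1 library per condition. CTCF was profiled in 3 kinds of transduced cells: CT carried a non-targeting shRNA, KD carried shRNA directed at CGGBP1, and OE received a lentivirus for overexpression of FLAG-tagged CGGBP1, and the CT and KD cells were selected with puromycin. H3K4me3, H3K9me3 and H3K27me3 were profiled in CT and KD, and the cells behind the 1 input library are not named in the labels. CGGBP1 itself was not measured by these lists, and the study asked how the level of this repeat-binding protein alters where CTCF sits. With 1 library per condition no difference below has a replicate check and no p-value is given. The lists hold positions without heights or read numbers, so the depth behind a peak is unknown here. For whole CTCF libraries on unmasked hg38, the study reports the most mapped reads for CT and the fewest for OE. It reports the lowest share of mapped reads for CT and the highest for KD. The part of these differences in the counts below was not tested. The CTCF lists held 41796 (CT), 46099 (KD) and 45991 (OE) peaks on the main chromosomes. The lists called on repeat-masked alignments held 25858, 23516 and 20384. According to the labels, the unmasked OE list was called at a looser p threshold (0.005) than CT and KD (0.0025), and the repeat-masked lists at 0.001 throughout. The study's methods name a single threshold for all unmasked lists, so whether OE was called differently is uncertain.

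V segments are the variable pieces of antibody and T cell receptor genes. In developing lymphocytes the RAG recombinase cuts at a recombination signal, a conserved heptamer and nonamer separated by a spacer, that follows each V segment, and joins it to a D or J segment far away. CTCF is a zinc finger protein that halts loop extrusion by cohesin in a manner that depends on the strand of its motif, and in lymphoid precursors it takes part in the folding that brings distant V segments to the joining end of the locus. The loci rearrange in lymphocytes and not in kidney cells.

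The segments fell into 6 loci. IGH, the antibody heavy chain locus, held 49 segments from IGHV6-1 to IGHV7-81 (chr14:105939756-106875071, all on the minus strand). IGK, the kappa light chain locus, held 44 from IGKV4-1 to IGKV3D-7 (chr2:88885397-90235370), 24 on the plus and 20 on the minus strand because its distal part is an inverted copy of the proximal part. IGL, the lambda light chain locus, held 37 from IGLV4-69 to IGLV3-1 (chr22:22030934-22881396, plus strand). The TRA/TRD locus of the T cell receptor alpha and delta chains held 49 from TRAV1-1 to TRDV3 (chr14:21621838-22469698), of which 1 was on the minus strand. TRB, the beta chain locus, held 48 from TRBV2 to TRBV30 (chr7:142300924-142813399), again with 1 on the minus strand. TRG, the gamma chain locus, held 9 from TRGV11 to TRGV1 (chr7:38291616-38368169, minus strand). The last 2 were the orphons IGKV3OR2-268 and IGKV1OR2-108, kappa segments on chromosome 2 outside the locus. The segments were 307 to 1845 bases long. No protein-coding gene outside the antigen receptor families lay within 5 kb of a segment.

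A match to the recombination signal was found after 218 of the 238 segments, with no heptamer mismatch at 147 of them. How often such matches arise by chance was not counted. It was searched as the heptamer CACAGTG with at most 2 mismatches and the nonamer ACAAAAACC with at most 4, at a spacer of 12 or 23 bases, starting within 60 bases after the 3′ end. All 44 IGK segments had the 12-base spacer, and the signals of IGH (48), IGL (30), TRA/TRD (42), TRB (45) and TRG (7) all had the 23-base spacer. Examples are printed to show the element beside which the IGH peaks described below lay, with heptamer and nonamer in capitals (hg38, strand of the segment).
IGHV4-34 (chr14:106373622-106373660, minus): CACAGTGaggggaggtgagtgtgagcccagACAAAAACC
IGKV6-21 (chr2:89159721-89159748, minus): CACTGTGttacaacccagaACAAAAACT
TRAV13-1 (chr14:21869366-21869404, plus): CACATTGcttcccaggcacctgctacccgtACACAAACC
The octamer ATGCAAAT, the Oct factor site of antibody gene promoters, was present on either strand in the 300-base promoter window of 43 of 49 IGH, 28 of 44 IGK and 30 of 37 IGL segments. In IGH it read forward in all 43, and in IGK and IGL it read in reverse in all cases. It was present in 1 of 49 TRA/TRD, 1 of 48 TRB and 0 of 9 TRG segments, against 1.77% of 35116 RefSeq promoter windows of the same length.

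CTCF peaks of the CT, KD and OE lists lay within 5 kb of 88, 132 and 114 segments, that is 37.0% (exact 95% interval 30.8 to 43.4), 55.5% (48.9 to 61.9) and 47.9% (41.4 to 54.4) of the 238. The intervals describe counting error only and treat segments as independent. Neighbouring windows overlap and can share a peak, so they may be too narrow even for that. The same windows around all annotated genes held a peak for 33.6% (CT), 38.7% (KD) and 36.9% (OE) of genes. The windows of the V segments were shorter than those of all genes, with medians of 10.5 and 13.6 kb. The counts rested on 82, 133 and 106 distinct peaks, or 37.9, 61.4 and 49 peaks per Mb of window, against 14.2, 15.7 and 15.7 per Mb of known sequence over the genome. A peak in at least 1 of the 3 unmasked lists lay near 146 segments (61.3%, all genes 49.7%), and peaks of all 3 lay near 78 segments (32.8%, all genes 24.5%). In the repeat-masked CT, KD and OE lists 86, 115 and 92 segments had a peak (36.1%, 48.3% and 38.7%), beside 27.7%, 28.3% and 25.4% of all genes. The input list had no peak near any of the 238 segments, which allows a share of up to 1.54% by the exact interval, and 1.0% of all genes had one.

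The loci were occupied unequally. In CT 10 of 49 IGH and 10 of 44 IGK segments had a CTCF peak, against 18 of 37 IGL, 24 of 49 TRA/TRD, 20 of 48 TRB and 5 of 9 TRG segments. In KD the counts were 18 (IGH), 16 (IGK), 27 (IGL), 35 (TRA/TRD), 27 (TRB) and 7 (TRG), higher than in CT at each of the 6 loci. In OE they were 12, 11, 24, 33, 25 and 7 in the same order, between CT and KD at 5 loci and equal to KD at TRG. The intervals of CT and KD overlapped at each single locus. In the repeat-masked lists the KD count was also above CT at 5 loci (IGH 19 against 14, IGK 13 against 9, IGL 24 against 19, TRA/TRD 29 against 23, TRB 23 against 14), and TRG had 6 segments in each of the 3 lists. With only the wider 50% of the peaks of each list, the repeat-masked totals turned to 64 segments in CT and 60 in KD. Within TRB, 11 of the 16 segments from TRBV6-5 to TRBV12-3 had a CT peak, against 5 of the 16 segments on the TRBV2 side and 4 of the 16 up to TRBV30. For KD these counts were 12, 9 and 6, and for OE 10, 9 and 6, so the middle stood out less there. 5 TRB segments had a CT peak only at their copy on the alternate sequences of hg38, treated below. TRBV6-4, TRBV5-3 and TRBV9 of these lay on the TRBV2 side, TRBV7-9 in the middle and TRBV30 at the end. The part of read placement in the contrast was not tested. Split likewise from the J segments outwards, CT counts were 9 of 17, 4 of 16 and 11 of 16 in TRA/TRD. They were 6 of 13, 3 of 12 and 9 of 12 in IGL. IGH had 4 of 17, 3 of 16 and 3 of 16.

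**Figure D1:**
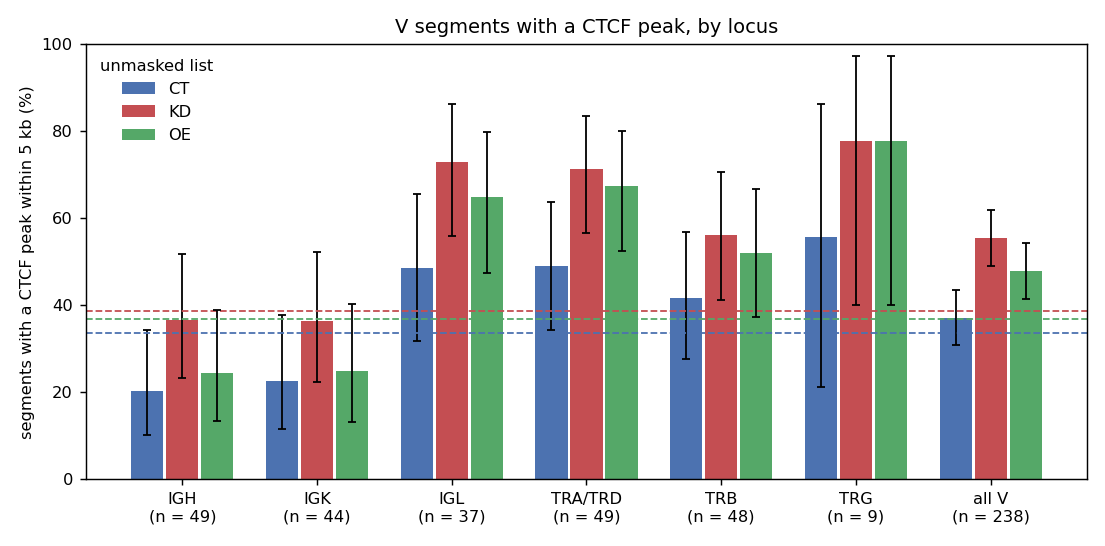
Share of V segments with a CTCF peak within 5 kb (percent, y axis), by locus and over all 238 segments. Bars are the unmasked CT, KD and OE lists. Error bars are exact 95% binomial intervals, which cover counting error only and treat segments as independent, though neighbours can share a peak. Dashed lines are the shares of all genes in the list of the same colour. IGH and IGK lie below the other loci in all 3 lists, and the KD bar is above the CT bar at every locus.

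In KD 50 segments had a peak and none in CT (21%, all genes 11.8%), and 6 had a peak in CT and none in KD (2.52%, all genes 6.72%). For OE against CT the numbers were 36 (15.1%, all genes 10.9%) and 10 (4.2%, all genes 7.61%). In the repeat-masked lists 38 segments had a KD peak alone and 9 a CT peak alone (16% and 3.78%, all genes 7.33% and 6.78%), and 24 had an OE peak alone and 18 a CT peak alone (10.1% and 7.56%, all genes 5.79% and 8.18%). Both comparisons share the 1 CT library. The 6 segments with CT peaks and no KD peak in the unmasked lists were IGHV3-11, IGHV3-21, IGHV3-23, IGHV3-72, IGKV1D-17 and TRBV6-6, named here after their values were seen. Of the 82 CT peaks near segments, 71 overlapped a KD peak (86.6%, 49.8% of the whole CT list) and 65 an OE peak (79.3%, 46.3% of the whole list). Of the 133 KD peaks near segments, 71 overlapped a CT peak (53.4%, 45.1% of the whole KD list).

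**Figure D2:**
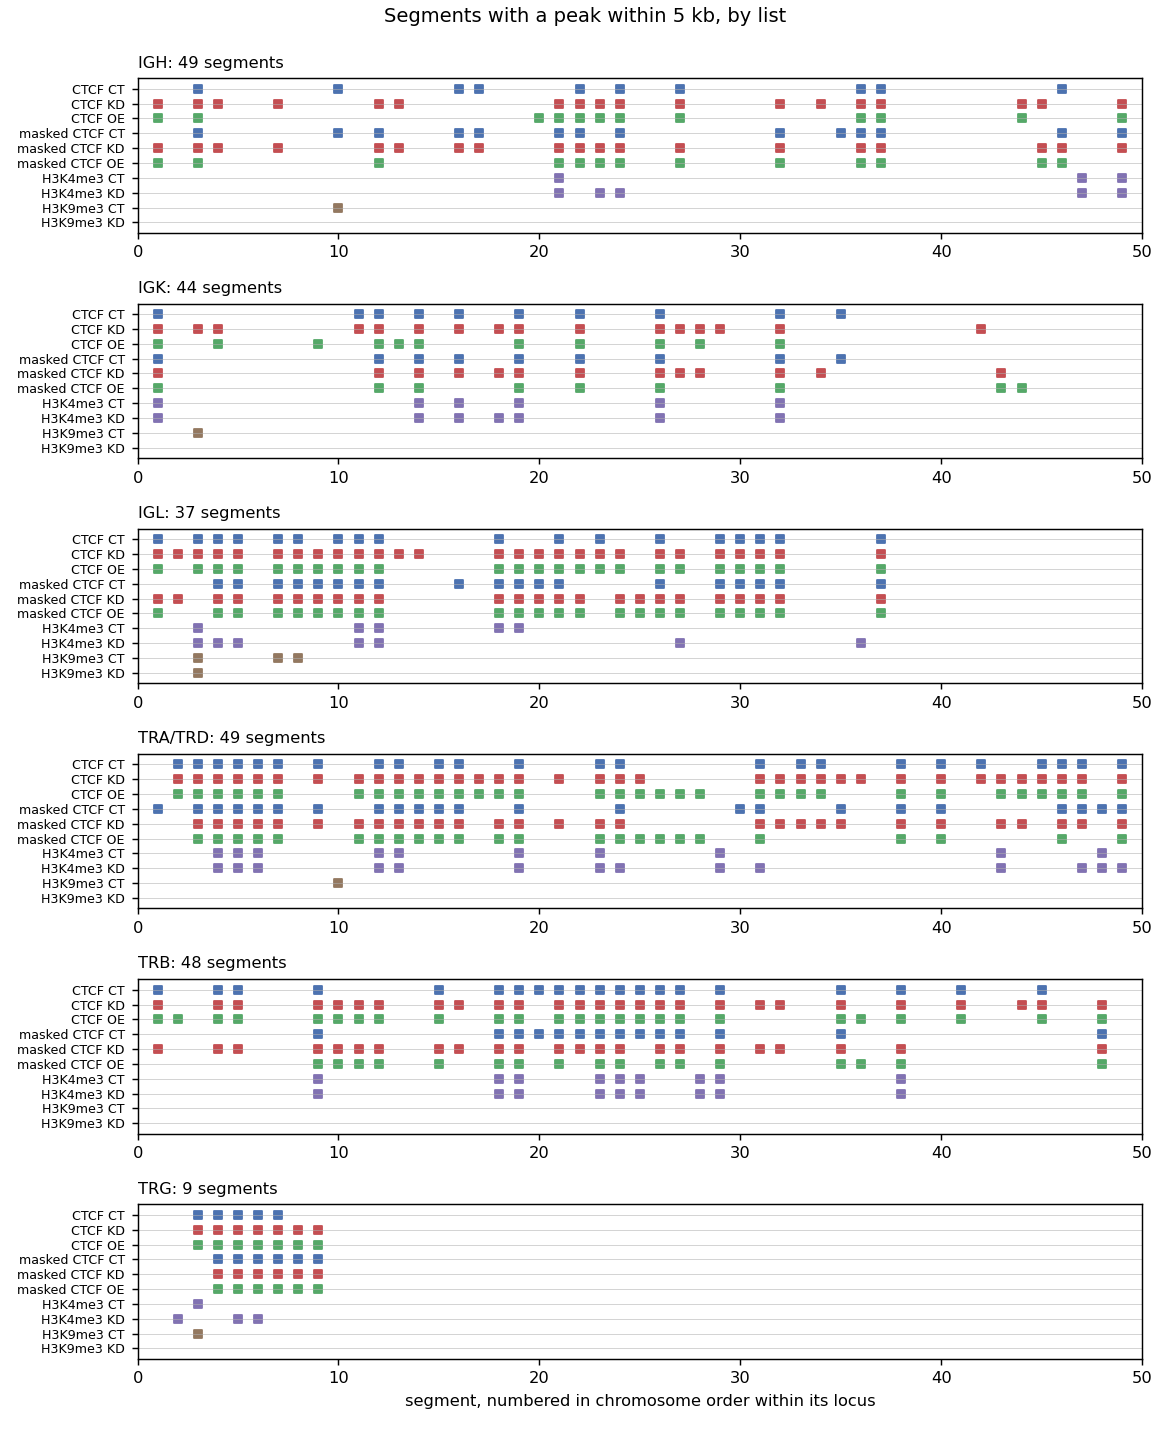
Each square marks a V segment with at least 1 peak within 5 kb; segments are numbered in chromosome order within their locus (x axis) and each row is 1 peak list, with "masked" for lists called on repeat-masked alignments. KD rows are the fullest of the CTCF rows in 5 of the 6 loci in the unmasked lists, and H3K9me3 squares are few; H3K27me3 and input rows are left out because they held no segment.

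The larger number of KD peaks near segments was set beside that of motif-bearing peaks over the genome. A CTCF motif matrix of 16 columns was learned from repeat-masked CT peaks shared with KD and OE, with the most frequent bases GCCACCAGGGGGCACT. A site is a match at p below 0.0001 at the genome's base composition, and a strong site a match at p below 0.00001. Of the peaks near segments, 82.9% (CT), 88.7% (KD) and 87.7% (OE) held a strong site, against 36.8%, 54.9% and 47.0% of the whole lists. Peaks near segments with a strong site numbered 68 in CT and 118 in KD, a ratio of 1.74, and over the genome the numbers were 15373 and 25306, a ratio of 1.65. Peaks near segments without a strong site numbered 14 and 15, against 26423 and 20793 over the genome, a ratio of 0.787. For OE the strong-site ratios to CT were 1.37 near segments and 1.4 over the genome. All KD peaks near segments stood to CT at a ratio of 1.62, and all peaks of the KD list at 1.1. In the repeat-masked lists the KD strong-site ratios were 1.47 near segments and 1.45 over the genome, and the OE ones 1.09 and 1.24.

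The windows themselves were rich in strong sites, with 425, or 196 per Mb against 80 per Mb over the genome. CT peaks lay over 18.1% of them, KD peaks over 34.6% and OE peaks over 24.7%, against 7.19%, 11.7% and 9.97% of all strong sites of the genome. TRA/TRD had the highest share under a peak (36.2% in CT and 58.6% in KD of 58 sites), and IGH had the lowest (6.74% and 24.7% of 178 sites). These shares count only peaks on the main chromosomes, and each of the tandem sites of IGH, described below, counts singly. The part of read placement between IGH and its copies on the alternate sequences was not tested. The score of a site is its log2 likelihood ratio against the genome's base composition. The 164 strong sites under a peak of any of the 6 CTCF lists had a median score of 19.02 (quartiles 16.42 and 21.44), and the 261 under none had 15.2 (14.16 and 17.71). Among sites scoring 18 to 21, 30% near segments were under a CT peak and 60% under a KD peak, beside 31.8% and 50.3% of such sites elsewhere. Among the 88 sites near segments scoring 21 or more, 31.8% were under a CT peak and 58.0% under a KD peak, below the 54.1% and 77.3% of such sites elsewhere.

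Merging the 6 CTCF lists gave 163 intervals near segments, with a median width of 323 bases. Of these 66 were found in the CT, KD and OE unmasked lists, 31 in KD and OE, 6 in CT and KD, 31 in KD alone, 11 in CT alone, 9 in OE alone and 9 in repeat-masked lists alone. A strong site was held by 60 of the 66 intervals found in all 3 conditions, by 30 of the 31 found in KD and OE and by 23 of the 31 found in KD alone. 48 intervals were in all 6 lists and 47 of them held a strong site, whereas 16 of the 35 intervals in a single list did.

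Most of these sites pointed the same way as the segment beside them. Of the 134 intervals with a strong site, the best site read on the strand of the nearest segment in 123 and on the opposite strand in 11. The counts were 25 and 0 at IGH, 16 and 2 at IGK, 21 and 3 at IGL, 35 and 1 at TRA/TRD, 19 and 3 at TRB and 7 and 0 at TRG, and both orphons had a site on the opposite strand. IGK holds segments of both strands, and there 9 of the 10 sites beside plus-strand segments were on the plus strand and 7 of the 8 beside minus-strand segments on the minus strand. At the minus-strand segments of TRA/TRD and TRB, TRDV3 and TRBV30, the 2 sites and the 1 site were on the minus strand. Counted by site, 149 of the 164 strong sites under a peak were on the segment's strand (90.9%), against 73.2% of the 261 strong sites under no peak. Elsewhere, strong sites under a CTCF peak within 5 kb of a gene were on the strand of the nearest gene in 50.8% of 23429 cases. Copies made by duplication share their sites, so neither segments nor sites are independent of each other.

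**Figure D3:**
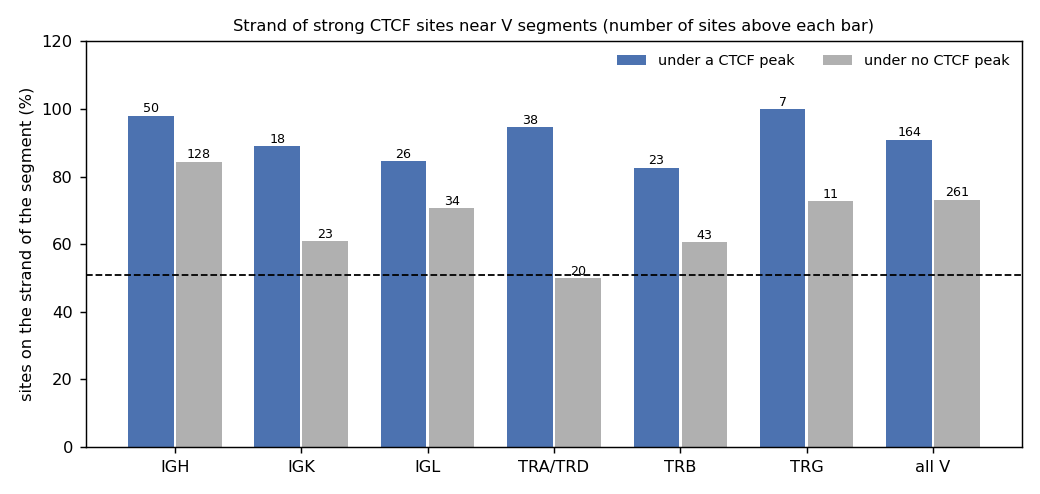
Share of strong CTCF sites that lie on the strand of the nearest V segment (percent, y axis), by locus, for sites under a peak of any of the 6 CTCF lists and for sites under none; the number of sites stands above each bar and the dashed line is the 50.8% found near other genes. Sites under a peak lie above the line at all 6 loci.

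Where the site lay differed between IGH and the other loci. The nearest segment was sought throughout among the V genes of the rule, without V pseudogenes. Some sites, mainly those kilobases away, may therefore lie nearer to a pseudogene. In IGH the best site lay 68 to 94 bases past the 3′ end of the segment (median 76.0) in 15 of 25 intervals, just beyond the recombination signal, and in all 15 it was on the segment's strand. No best site of the T cell receptor loci or of IGL lay within 100 bases past the 3′ end, and 1 of IGK did, at IGKV1-27. In TRA/TRD 24 of 40 best sites lay within 500 bases before the 5′ end (centres from -298 to -51, median -166.5, counted from the 5′ end), and all 24 were on the segment's strand. IGL had 9 such sites (-384 to -163), TRG 4 (-153 to -67), IGK 3 (-178 to -140), TRB 2 and IGH none. In the 300-base promoter windows, strong sites were present at 20 of 49 TRA/TRD and 6 of 9 TRG segments, all on the segment's strand, and at 6.82% of other genes.

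**Figure D4:**
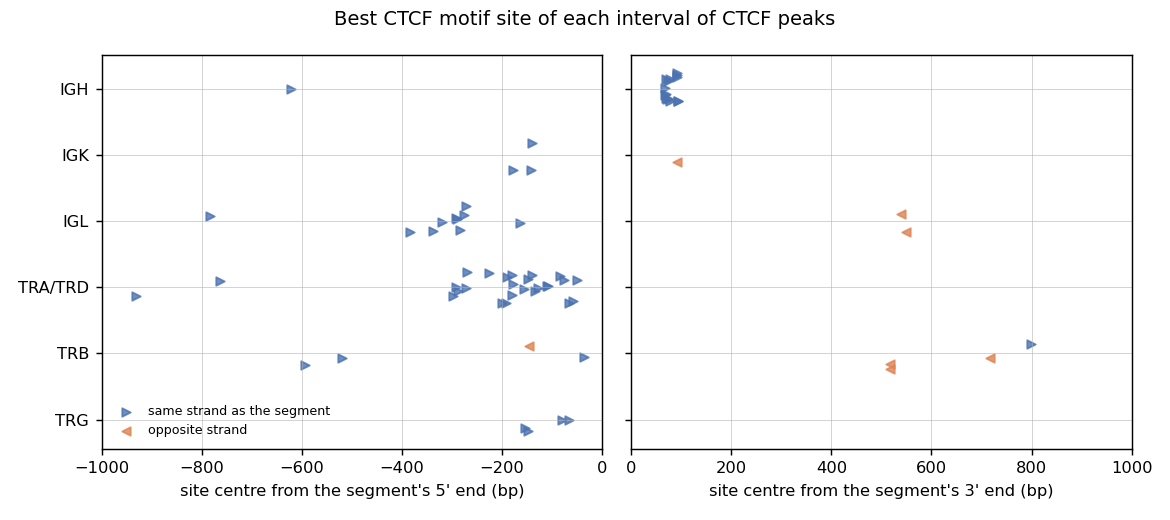
Centre of the best CTCF motif site of each interval of CTCF peaks, in bp from the 5′ end (left, up to 1000 bp before it) or the 3′ end (right, up to 1000 bp past it) of the nearest V segment, by locus; right-pointing marks are on the segment's strand and left-pointing marks on the opposite strand, with vertical jitter. IGH sites stack between 68 and 94 bp past the 3′ end. Within 500 bp before the 5′ end, the 24 TRA/TRD, 9 IGL, 4 TRG and 3 IGK sites are all on the segment's strand, as is 1 of the 2 TRB sites.

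The IGH sites belonged to 2 of the heavy chain families. A strong site lay within 120 bases past the 3′ end of 19 of 22 IGHV3 and 6 of 7 IGHV4 segments, in all 25 on the segment's strand, and of none of the 19 segments of IGHV1, IGHV2, IGHV5, IGHV6 and IGHV7. The single IGHV8 segment also had one. Peaks of any list covered it at 10 IGHV3 and 5 IGHV4 segments. The unmasked CT list covered it at 4 IGHV3 and 4 IGHV4 segments, KD at 5 and 5 and OE at 2 and 3. The sequences below show the 10 or 12 bases before the heptamer, the recombination signal and the CTCF site in 1 stretch, with heptamer, nonamer and 16-base site in capitals. The 3 IGHV4 segments are those that overlapped an interval found in all 6 lists, and the 3 IGHV3 segments were picked after their values were seen, as examples with a peak in some lists.
IGHV4-31 (chr14:106349174-106349292, minus): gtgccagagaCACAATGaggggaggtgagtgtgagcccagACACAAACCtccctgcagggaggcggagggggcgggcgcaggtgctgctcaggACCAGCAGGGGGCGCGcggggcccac
IGHV4-34 (chr14:106373552-106373672, minus): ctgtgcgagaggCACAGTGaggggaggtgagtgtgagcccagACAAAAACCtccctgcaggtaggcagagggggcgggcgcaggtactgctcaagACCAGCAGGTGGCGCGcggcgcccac
IGHV4-59 (chr14:106627140-106627258, minus): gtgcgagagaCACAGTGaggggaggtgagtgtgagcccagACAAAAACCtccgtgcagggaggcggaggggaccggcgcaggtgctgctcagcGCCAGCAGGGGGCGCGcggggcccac
IGHV3-15 (chr14:106153537-106153633, minus): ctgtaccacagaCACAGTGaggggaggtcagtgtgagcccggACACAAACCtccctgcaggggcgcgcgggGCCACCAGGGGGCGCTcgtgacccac
IGHV3-11 (chr14:106116550-106116644, minus): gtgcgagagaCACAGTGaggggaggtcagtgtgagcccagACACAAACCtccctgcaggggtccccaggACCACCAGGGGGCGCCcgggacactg
IGHV3-21 (chr14:106234977-106235073, minus): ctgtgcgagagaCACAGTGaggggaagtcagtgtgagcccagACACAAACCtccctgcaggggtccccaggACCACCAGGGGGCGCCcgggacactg
The site began 44 bases past the nonamer in the 3 IGHV4 segments and 20 bases past it in the 3 IGHV3 segments. IGHV3-11 had a peak over it in the unmasked and repeat-masked CT lists and in no other. IGHV3-21 had one in both CT lists and in the repeat-masked KD list. IGHV3-15 had one in the unmasked KD list and in all 3 repeat-masked lists.

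IGH also held tandem sites. 4 intervals, nearest to IGHV1-58, IGHV4-39, IGHV7-81 and IGHV3-16, held 27 strong sites among them, 10 of them in the interval near IGHV4-39. All 4 were in the unmasked KD list. The interval nearest to IGHV1-58 was also in the unmasked CT list, and the one nearest to IGHV4-39 also in both OE lists. The interval nearest to IGHV7-81 was also in the repeat-masked CT list. IGHV1-3, which had no strong site within 120 bases past its 3′ end, was nearest to the other IGH interval found in all 6 lists, 468 bases away (chr14:106006042-106006328).

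In TRA/TRD the sites before the 5′ end formed a series through the locus. 14 TRA/TRD intervals were in all 6 lists, and those at TRAV3, TRAV5, TRAV6, TRAV8-2, TRAV13-1, TRAV13-2 and TRAV29DV5 overlapped the segment itself. The sites of TRAV5, TRAV13-1 and TRAV13-2 shared most of their bases, and TRAV3 and TRAV6 carried weaker ones. Their 16-base sites stand in capitals with 7 bases on each side, on the segment's strand.
TRAV3 (chr14:21723597-21723612, plus, score 14.73): acgtgtgGGCTCTAGGGGGCGATgcagtgt
TRAV5 (chr14:21748991-21749006, plus, score 19.65): ggatctgGCCACAAGGTGGCAGAgcttctc
TRAV6 (chr14:21768305-21768320, plus, score 16.83): ctttctgAACACAAGAGGGCAGTatttcct
TRAV13-1 (chr14:21868632-21868647, plus, score 20.83): ggatgtgGCCACAAGATGGCAGTgctcctc
TRAV13-2 (chr14:21918025-21918040, plus, score 19.67): gaatgtgACCACAAGATGGCAGTgcttctc
TRAV29DV5 had a weaker site that did not pass the strict threshold (score 10.13). TRAV2, TRAV4, TRAV16, TRAV23DV6, TRAV26-2 and the unnamed segment ENSG00000289723 had an interval of all 6 lists before their 5′ end as well, 576 to 2177 bases away. Over the locus 24 segments had a peak in both CT and KD, 11 in KD without CT and none in CT without KD in the unmasked lists. In the repeat-masked lists TRAV1-1, TRAV22 and TRDV2, named after their values were seen, had a CT peak and no KD peak. A strong site within 500 bases before the 5′ end was present at 25 of the 49 segments and was covered by a CT peak at 11, a KD peak at 20 and an OE peak at 18.

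IGL resembled TRA/TRD in position, with sites farther from the segment. A strong site within 500 bases before the 5′ end was present at 19 of 37 segments, all on the segment's strand, and 6 of them were under a CT peak, 9 under a KD peak and 9 under an OE peak. 13 IGL intervals were in all 6 lists. The nearest were at IGLV9-49 (overlapping it), IGLV1-51 (57 bases away), IGLV6-57 (89), IGLV1-47 (94), IGLV3-32 (141) and IGLV11-55, followed by IGLV3-21, IGLV3-12 and IGLV3-16 at 593 to 1364 bases. The sites of 4 of these segments are shown, among them both IGLV1 family members with an interval in all 6 lists.
IGLV9-49 (chr22:22343017-22343032, plus): gcacctgGCCACTAGGGGGAGGCaaactct
IGLV1-51 (chr22:22322174-22322189, plus): caccatgGACACTAGGGGGCGCCtgcgcac
IGLV1-47 (chr22:22357460-22357475, plus): tagtctgGACACTAGGGGGCGCTtggggac
IGLV3-32 (chr22:22594201-22594216, plus): tcctgtgGGCACCAGGGGGCACTgtgaccc
In the IGLV3 family 6 of 11 segments had a CT peak, 8 a KD peak and 8 an OE peak, and in IGLV2 the numbers were 2, 4 and 4 of 6.

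IGK, TRG and TRB gave fewer intervals in all 6 lists (8, 3 and 6). At IGK the segments IGKV6-21 and IGKV6D-21, which mirror each other across the inverted duplication, each overlapped an interval found in all 6 lists, and their best sites had the same 30 bases on opposite strands of the chromosome, each on the strand of its segment. At IGKV6D-21 peaks of all 6 lists covered the site, and at IGKV6-21 the repeat-masked OE peak did not.
IGKV6-21 (chr2:89160501-89160516, minus): tgcaggtGCCAGCAGAGGGCGCTtcacacc
IGKV6D-21 (chr2:90021420-90021435, plus): tgcaggtGCCAGCAGAGGGCGCTtcacacc
TRGV4 (chr7:38354448-38354463, minus): ctcagctGCCACAAGAGGGCGCCggagaac
TRBV13 (chr7:142535209-142535224, plus): cacactgGCCACTTGGGGGCACTgtggatc
TRBV14 (chr7:142587715-142587730, minus): gaagattGCCTCTAGAGGGGGCAatggaga
TRBV14 is 1 of the 3 TRB cases counted above as opposite, since it is on the plus strand and its best site (score 13.86) on the minus strand. TRGV4 had 1 CT, 3 KD and 3 OE peaks within 5 kb and its neighbour TRGV5 had 2, 3 and 3. No segment had more than 3 in a list, and TRAV8-2 (1, 3 and 2) and IGKV2D-29 (0, 3 and 1) also reached 3 in KD. The TRGV4 site shared its 16 bases with that in the interval near TRGV5, and the intervals near TRBV5-4, TRBV5-6 and TRBV7-2, also in all 6 lists, shared another 16, printed here in capitals.
TRGV5 (chr7:38345757-38345772, minus): ctcagctGCCACAAGAGGGCGCCgaagaaa
TRBV5-4 (chr7:142459648-142459663, plus): cttattgGCCACAAGATGGCACTgtggtcc
TRBV5-6 (chr7:142496686-142496701, plus): cttattgGCCACAAGATGGCACTatggtcc
TRBV7-2 (chr7:142358063-142358078, plus): cttattgGCCACAAGATGGCACTgtggtcc
The TRBV7-2 and TRBV5-4 intervals lay 4279 and 2867 bases from their segments. These 3 TRB segments were picked after their values were seen. Of 16 IGK pairs of a proximal segment and its distal copy, both members had a CT peak in 3, a KD peak in 3 and an OE peak in 2. The windows of these pairs were poor in unique 50-mers, with 34.1% at IGKV6-21. The study kept only reads longer than 50 bases, and how many of them fit both copies was not measured. The IGKV3 family had no peak in CT or KD at any of its 8 segments and 1 in OE.

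The share of unique sequence differed between the loci. It was read from 50-mers, and the study's reads were longer, so it may understate how far reads can be placed. The median share of 50-mers of a window that occur once on the main chromosomes was 88.6% in IGH, 36.4% in IGK, 93.5% in IGL, 98.0% in TRA/TRD, 96.5% in TRB and 86.5% in TRG. hg38 also carries alternate sequences of some loci, and the peak lists include them. Counting these, the medians were 0.0% in IGH and 7.9% in TRB, while IGL (90.0%) and TRA/TRD (98.0%) stayed high. A copy of 107 segments was found there, 48 of them from IGH and 47 from TRB. Peaks lay near the copy but not near the main-chromosome segment for 8 (CT), 5 (KD) and 7 (OE) segments. With those counted, 96, 137 and 121 segments had a CTCF peak (40.3%, 57.6% and 50.8%), and IGH had 12, 21 and 17 of 49. Of the 6 segments with a peak in CT and none in KD, the copies of IGHV3-11, IGHV3-23 and IGHV3-72 had a KD peak. Of the 50 with a peak in KD and none in CT, the copies of IGHV3-30, IGHV3-33, TRBV6-4, TRBV5-3 and TRBV30 had a CT peak. IGHV3-30 and IGHV3-33 were matched to the same copy. The part of read placement in the low IGH and IGK counts was not tested beyond this.

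H3K4me3, the mark of active promoters, was sparse. It lay within 5 kb of 36 segments in CT (15.1%, interval 10.8 to 20.3) and 47 in KD (19.7%, 14.9 to 25.4), while 53.4% and 54.6% of all genes had such a peak. In KD 14 segments had a peak and none in CT (5.88%, all genes 2.84%), and 3 had one in CT and none in KD (1.26%, all genes 1.65%). The 33 CT and 44 KD peaks were narrow, with medians of 393.0 and 429.5 bases against 547.0 and 522.0 bases for the whole lists, and gave 15.2 and 20.3 peaks per Mb against 25.2 and 26.9 over the genome. Merged, they formed 48 intervals, 30 in both conditions, 3 in CT alone and 15 in KD alone, of which TRA/TRD held 15, IGK and IGL and TRB 7 each, IGH 5 and TRG 4. Within 1 kb of the start of any other annotated gene lay 4 of them.

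The H3K4me3 peaks near segments mostly sat on CTCF peaks. A peak of at least 1 of the 6 CTCF lists overlapped 26 of the 33 CT peaks (78.8%) and 34 of the 44 KD peaks (77.3%), against 25.3% and 24.3% of the whole H3K4me3 lists. Read from the other side, 24.4% of the CT CTCF peaks near segments overlapped an H3K4me3 CT peak, and so did 23.5% of CTCF CT peaks elsewhere that were over 2 kb from any gene start. Among those distal CT peaks that held a strong site the share was 37.7%. For KD the shares were 24.8% near segments, 29.4% of distal peaks and 32.6% of distal peaks with a strong site. Intervals of both conditions that overlapped the segment itself were at TRAV3, TRAV5, TRAV8-2, TRAV8-6, IGHV3-30, IGHV3-73, IGKV6-21, IGKV6D-21 and IGKV1OR2-108, and the next nearest was at TRBV7-9, 110 bases away. Of these 10, the intervals at IGHV3-73, IGKV1OR2-108 and TRBV7-9 overlapped no CTCF peak of any list. On the alternate sequences, a repeat-masked KD CTCF peak lay near the copy of IGHV3-73 and an unmasked CT one near that of TRBV7-9.

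H3K9me3, a mark of constitutive heterochromatin, lay near 7 segments in CT (2.94%, all genes 11.5%) and 1 in KD (0.42%, all genes 5.35%). The 6 intervals were nearest to TRAV9-1, IGHV3-11, IGKV1-5, IGLV4-60, IGLV5-52 and TRGV9. The one at IGLV4-60 (chr22:22160485-22160704) was in both CT and KD and overlapped CTCF peaks, and the other 5 were in CT alone and overlapped none. H3K27me3, the Polycomb mark, lay near none of the 238 segments in CT or KD (all genes 2.53% and 1.73%), which allows a share of up to 1.54%. The labels and the methods name opposite antibodies for these 2 marks, so a value of either may belong to the other.

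The other pieces of the receptor loci were counted in the same way. V pseudogenes on the same chromosomes had a CTCF peak at 49 of 192 in the CT list, 65 in the KD list and 55 in the OE list, or 25.5%, 33.9% and 28.6%, beside the 33.6%, 38.7% and 36.9% of all genes. D, J and C segments had one at 18 of 149 with CT, 10 with KD and 19 with OE peaks (12.1%, 6.71% and 12.8%). The CT to KD difference lay in the 79 T cell receptor J segments, with 16 in CT and 8 in KD, and 8 in each repeat-masked list. Neighbouring windows can share a peak and distinct peaks were not counted here, so 1 peak may stand for many segments. There were none at the 27 D, 18 J and 14 C segments of the antibody loci in any CTCF list. Of 11 genes of the recombination machinery, 8 had an H3K4me3 peak within 1 kb of their start in CT and KD, beside 33.5% of all genes and 66.6% of protein-coding genes in CT. RAG1, a subunit of the recombinase, and HMGB1 were among them. RAG2, the other subunit, DNTT, which adds bases at the joints, and XRCC5, a broadly used end-joining gene, were not. The start was the outermost one annotated for a gene, which need not be the promoter in use. Whether the peak at the annotated start of RAG1 belongs to its own promoter was not tested. None of 9 genes for receptor partners, such as CD3D, CD3E, CD3G and CD247 of the T cell receptor complex, had an H3K4me3 peak within 1 kb of its start. The lymphoid markers had an H3K4me3 peak at their start in 2 of 9 (EBF1 and CD8A), with none at PTPRC, MS4A1 or PAX5. Kidney and epithelial markers had one in 3 of 4 (KRT8, KRT18 and LHX1, with none at PAX2), and genes used in every cell in 3 of 4, with none at EEF1A1. Within 5 kb of the whole gene, as for the V segments, 10 of 11 machinery genes and 4 of 9 receptor partners had an H3K4me3 peak in CT. So did 6 of 9 lymphoid markers, all 4 kidney and epithelial markers and all 4 genes used in every cell, beside 53.4% of all genes.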

How the data were processed

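Peak positions were deposited by the authors as 3-column lists without scores. Per the labels and the study's methods, the authors aligned single-end ChIP-seq reads of HEK-293T cells with Bowtie2 to unmasked or repeat-masked hg38, kept the best-scoring alignment and called peaks with MACS2 per library. Tool versions are not given in the sources used here. Starts were read as counted from 0. Lists of peaks exclusive to 1 condition are the authors' own comparisons and were not used, and 6 such lists were left out. V segments and all other genes came from GENCODE v44. A segment or gene was counted where a peak overlapped its body extended by 5 kb. The CTCF matrix, the site scan, the share of unique 50-mers and the recombination signals were computed from hg38, and promoter windows span 250 bases before to 50 after the start. Shares carry exact (Clopper-Pearson) 95% intervals, and the overlap counter was tested on simulated data. Members and gene lists were chosen with earlier results of these data known. Segments were named by closeness to intervals found in the most lists, at most 30 for CTCF and 10 per mark. Python 3.11.15, pandas 2.3.3, scipy 1.17.1 and pysam 0.24.0 were used.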

Additional observations from a re-analysis of the deposited data

How the results depend on the processing

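Leaving out replicates was not possible with 1 library per condition, and nothing below is a test. No paired analysis was possible because each condition had 1 library and no result came from a test. With a window of 1 kb the counts of segments with a peak were 44 (CT), 65 (KD) and 54 (OE) for CTCF, 42, 57 and 43 in the repeat-masked lists, 14 and 21 for H3K4me3 in CT and KD, and 3 and 0 for H3K9me3. With 10 kb, H3K4me3 gave 57 and 72 and H3K9me3 in CT gave 12. With only the wider 50% of the peaks of each list, CTCF gave 38, 84 and 69, the repeat-masked CT, KD and OE lists 64, 60 and 46, H3K4me3 15 and 16 and H3K9me3 in CT 2. The order of CTCF counts, with KD above OE above CT, was the same in the unmasked lists with both windows (127, 147 and 173 in the order CT, OE, KD at 10 kb) and with the wider peaks. In the repeat-masked lists KD was above CT with both windows, and below it with the wider peaks. Counting peaks at copies on alternate sequences, chosen after the data were seen, gave 2 segments with H3K27me3 in CT. The other settings (no input-overlapping peaks, starts counted from 1, segments of at least 50% 50-mers unique on the main chromosomes) moved no count or share of segments by over 1.5 times or out of its interval. The last of these takes no account of copies on alternate sequences. With those counted, the median share of unique 50-mers was 0.0% in IGH and 7.9% in TRB, so the filter does not address them. The background depended on its construction. The share of units with a CTCF peak was 16.8%, 21.5% and 20.1% (CT, KD, OE) for windows around gene starts, 54.6%, 62.4% and 60.3% for protein-coding genes and 12.8%, 13.7% and 13.5% for 10 kb bins. For H3K4me3 it was 84.0% and 84.9% for protein-coding genes and 19.0% and 20% for bins. CTCF peaks near segments were thus above the bins and gene starts and below protein-coding genes. With the strict motif threshold 82.9%, 88.7% and 87.7% of CT, KD and OE peaks held a site, against 91.5%, 97.7% and 94.3%. Read depth at a site is unknown from these lists, so a missing peak does not show absence of CTCF.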
